A study of Homo sapiens with 4 samples.

Results

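Glutathione, the main small antioxidant of the cell, is made from cysteine, and 10 genes that bring in cystine, make cysteine, build glutathione, recycle it or break it down were followed in pancreatic cancer cells treated with cannabichromene (CBC). CBC is a cannabinoid of the Cannabis plant. The 10 genes were SLC7A11, SLC3A2, GCLC, GCLM, GSS, GSR, CBS, CTH, CHAC1 and CHAC2, taken by gene symbol from the 58233 gene identifiers of the count table. The cells were of 2 established lines from human pancreatic cancer, MIA PaCa-2 and PANC-1, both of wild-type genotype per the sample records. CBC was given at 35 μM to MIA PaCa-2 and at 30 μM to PANC-1. The control of each line is recorded as PBS, while the study's methods dissolve CBC in acetonitrile and speak of a vehicle control. Polyadenylated RNA was sequenced 24 h after treatment in 4 libraries, 1 for each line and treatment. Dose therefore differed between the lines, and a change within 1 line has no replicate behind it.

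The libraries held 21742775 to 27903667 counts on genes, so a gene with 0 counts could still lie at up to 3 counts. That is 0.108 to 0.138 CPM (counts scaled to library size) depending on the library, taken from library totals. All later CPM values use library sizes scaled by TMM in edgeR. The share of counts on mitochondrially encoded genes was lower with CBC, going from 5.81% to 3.86% in MIA PaCa-2 and from 4.63% to 2.42% in PANC-1. KRT8, KRT18 and KRT19, keratins of epithelial cells, had 3976 to 40044 counts in every library. VIM, a marker of the mesenchymal state, was above them with 75118 to 119039 counts. EPCAM and CDH1, which define epithelial adhesion, had 0 or 1 count in MIA PaCa-2 and 32 to 264 counts in PANC-1. Of 6 acinar and endocrine markers 5 had no count in any library, and the sixth, PRSS1, had 1. Of 3 leukocyte markers PTPRC and CD3E had no count, and CD68 was higher with CBC, with 1 and 9 counts in MIA PaCa-2 and 12 and 22 in PANC-1. The summed fibroblast markers moved with CBC, from 8185 to 2376 counts in MIA PaCa-2 and from 3091 to 1287 in PANC-1. COL1A2 alone carried this in MIA PaCa-2 (8174 to 2348) and mainly COL1A1 in PANC-1 (3037 to 1268). In MIA PaCa-2 COL1A1 went from 11 to 13 counts and PDGFRB from 0 to 15, while in PANC-1 PDGFRB went from 54 to 18. DCN had no count, and COL1A2 had 0 and 1 in PANC-1. The 3 endothelial markers together had 49 and 9 counts in MIA PaCa-2 without and with CBC and 2 and 3 in PANC-1, with PECAM1 at 0. The part of these shifts in the results was not tested.

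Cystine, the oxidised dimer of cysteine, enters cells in exchange for glutamate through system xc-, in which SLC7A11 is the transporting light chain and SLC3A2 the heavy chain that carries it to the membrane. Glutamate-cysteine ligase, made of the catalytic subunit GCLC and the modifier subunit GCLM, joins cysteine to glutamate, and GSS adds glycine to complete glutathione. GSR reduces oxidised glutathione with NADPH. CBS and CTH make cysteine from homocysteine in the transsulfuration pathway, and CHAC1 and CHAC2 cleave glutathione. Several of these genes are known targets of ATF4, the factor of the amino acid and endoplasmic reticulum stress response, or of NRF2 (gene NFE2L2), the factor of the antioxidant response. Loss of cystine uptake or of glutathione is a known route to ferroptosis, a death by lipid peroxidation.

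Promoter sequence for 7 of the 10 genes was given by RefSeq on GRCh38.p14, in 12 windows of 250 bases before a transcription start. SLC7A11, GSS and GSR had no window. Both strands were searched for TGATGNAA, a form of the composite site that ATF4 binds, and for TGACNNNGC, the core of the antioxidant response element, which with TCA after TGAC also holds the AP-1 site TGACTCA. Of all 35114 windows, 3.14% held the first motif and 10.9% the second. CHAC1 held the first, at -209 to -202 from its start, and SLC3A2, GCLM and CBS each held the second in 1 window. The other windows of SLC3A2 and CBS, and all windows of GCLC, CTH and CHAC2, held neither. These matches are letters in a window, and no binding was measured here. The windows with a match in the gene with the highest fold change (CHAC1), in the heavy chain (SLC3A2) and in the gene with opposite directions (GCLM) are shown with that of CHAC2, which was lower with CBC. Capitals mark the motif, and exon bases were left out of the longer windows. Only 30 bases of CHAC1 are shown, since an annotated exon covers its window.
CHAC1, chr15:40953251-40953280, plus strand: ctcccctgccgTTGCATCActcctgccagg
SLC3A2, chr11:62881454-62881697, plus strand: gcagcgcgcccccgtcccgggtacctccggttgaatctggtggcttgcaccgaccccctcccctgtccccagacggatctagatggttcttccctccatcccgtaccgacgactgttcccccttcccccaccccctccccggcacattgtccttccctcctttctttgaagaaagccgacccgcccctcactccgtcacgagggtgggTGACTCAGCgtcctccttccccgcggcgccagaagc
GCLM, chr1:93909456-93909680, minus strand: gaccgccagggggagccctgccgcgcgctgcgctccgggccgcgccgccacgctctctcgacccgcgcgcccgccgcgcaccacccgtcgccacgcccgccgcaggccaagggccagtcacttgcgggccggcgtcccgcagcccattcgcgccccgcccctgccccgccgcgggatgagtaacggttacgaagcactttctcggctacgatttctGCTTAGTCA
CHAC2, chr2:53767533-53767782, plus strand: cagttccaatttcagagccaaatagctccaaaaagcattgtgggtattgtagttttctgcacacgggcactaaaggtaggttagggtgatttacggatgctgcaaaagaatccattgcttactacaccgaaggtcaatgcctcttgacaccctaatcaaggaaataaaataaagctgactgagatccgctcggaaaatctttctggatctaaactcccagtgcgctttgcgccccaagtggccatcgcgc
The match was TGACTCAGC in SLC3A2 at -37 to -29 and TGACTAAGC on the opposite strand in GCLM at -34 to -26. In CBS it was TGACCGCGC, also on the opposite strand, at -83 to -75 of the third window.

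SLC7A11, SLC3A2, CTH and CHAC1 rose with CBC across the lines. Transcripts of both chains of the cystine importer, the last transsulfuration enzyme and a glutathione-cleaving enzyme were thus higher together. GCLC and CBS were higher in both lines without passing the test across them. GSS and GSR differed little, GCLM went in opposite directions, and CHAC2 was lower in both lines. In MIA PaCa-2 6 of the 10 genes had a log2 fold change above 1, a threshold passed by 11.5% of 14001 tested genes, and 0 were below -1, as were 8.97% of all. In PANC-1 4 of 10 were above 1, against 7.71% of 14091 genes, and CHAC2 was the 1 gene below -1, against 7.03%. The median log2 fold change of the 10 genes was 1.48 in MIA PaCa-2 and 0.85 in PANC-1, beside -0.01 and 0.02 over all tested genes. SLC7A11, SLC3A2, CTH and CHAC1 were above 1 in both lines, a pattern of 416 of the 12502 genes tested in both (3.33%).

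**Figure D1:**
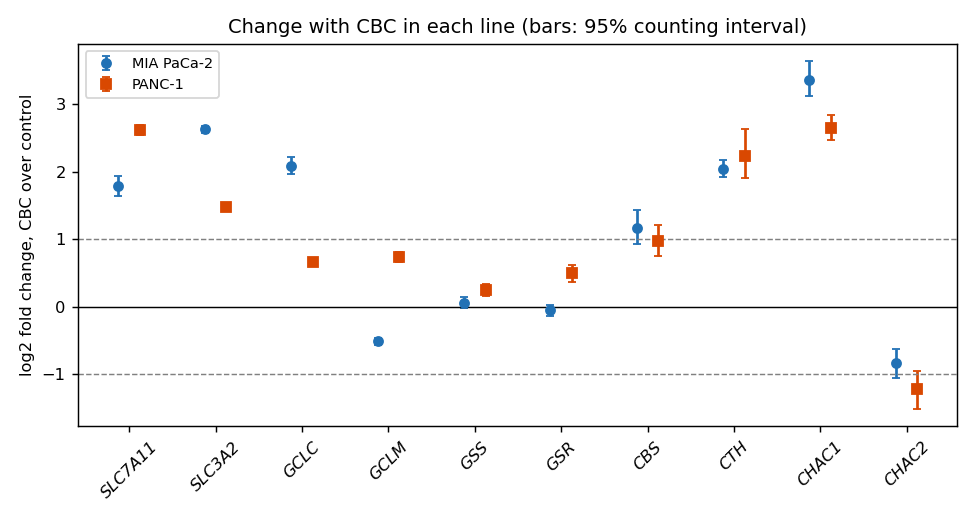
Log2 fold change of CBC over control for the 10 genes in MIA PaCa-2 (circles) and PANC-1 cells (squares), with 95% counting intervals as bars and dashed lines at 1 and -1. CHAC1, CTH, SLC3A2 and SLC7A11 lie above 1 in both lines, and GCLM lies at -0.51 in MIA PaCa-2 and 0.73 in PANC-1.

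Across the lines, 4 of 10 genes passed edgeR's quasi-likelihood test as higher (Benjamini-Hochberg adjusted p under 0.05, cell line as a block), against 2.37% of 16380 tested genes. By the same edgeR test 0 of 10 passed as lower, against 2.6% of all genes, with 1 gene lower at an unadjusted p under 0.05 and 0 by DESeq2. At an unadjusted p under 0.05 in edgeR 6 of the 10 genes were higher, a count not taken over all genes. DESeq2 called 5 of the 10 higher, and over all genes it called 617 higher and 753 lower. The edgeR calls rest on the block, since without it edgeR called 0 genes in all, and thus 0 of the 10. Without the filter on low counts 7 of the 10 passed, the 4 called genes among them. Over all genes, 1056 were then called higher and 1007 lower. The 2 lines were the only replication, with 1 residual degree of freedom, and they also differed in dose. The spread behind each p-value was estimated with information shared over all tested genes, so it is not that of the gene alone. The p-values thus depend on which genes are kept. Without the filter the adjusted p of SLC7A11 in edgeR's quasi-likelihood test went from 0.00714 to 1.9e-17. In RNA from whole cultures, fewer cells with a transcript and less of it per cell cannot be told apart.

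SLC7A11, the cystine-glutamate exchanger (chromosome 4 of GRCh38, 138164097 to 138242349, minus strand), moved from 447 to 1717 counts in MIA PaCa-2 and from 1571 to 11620 in PANC-1. The control of PANC-1 was thus close to the treated MIA PaCa-2 library, at 69.1 and 69.4 CPM, and the treated PANC-1 library stood far above all others at 425 CPM. The log2 fold change was 1.78 in MIA PaCa-2 (95% counting interval 1.64 to 1.94) and 2.62 in PANC-1 (2.55 to 2.699). The intervals cover counting error only. SLC7A11 rose across the lines by 2.22 on the log2 scale (SE 0.25, adjusted p = 0.00714 in edgeR's quasi-likelihood test with Benjamini-Hochberg adjustment). An antisense gene, SLC7A11-AS1, shares 865 exon bases with it on the opposite strand and had 0 to 6 counts.

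SLC3A2, the heavy chain (chromosome 11, 62856004 to 62888880, plus strand), had nearly the same counts in both controls, 3217 in MIA PaCa-2 and 3320 in PANC-1. With CBC it reached 22128 counts in MIA PaCa-2 and 11059 in PANC-1. The order of the lines was therefore the reverse of that for SLC7A11, with a log2 fold change of 2.63 (2.58 to 2.68) in MIA PaCa-2 and 1.47 (1.41 to 1.53) in PANC-1. SLC3A2 rose across the lines by 2.06 (SE 0.29, adjusted p = 0.0125 in edgeR's quasi-likelihood test with Benjamini-Hochberg adjustment). Between the lines, the response of SLC7A11 was 0.84 larger in PANC-1 (0.67 to 1.005) and that of SLC3A2 was 1.16 larger in MIA PaCa-2, a difference of -1.16 (-1.23 to -1.08). With 1 library per condition these differences have a counting interval and no test.

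GCLC, the catalytic subunit (chromosome 6, 53497341 to 53616970, minus strand), moved from 644 to 3058 counts in MIA PaCa-2 and from 4001 to 7610 in PANC-1. The treated MIA PaCa-2 library stayed below the untreated PANC-1 library, at 124 against 176 CPM. The log2 fold change was 2.09 (1.97 to 2.22) in MIA PaCa-2 and 0.66 (0.61 to 0.72) in PANC-1, and the difference between the responses was -1.43 (-1.56 to -1.29). Across the lines GCLC was higher by 1.38 (SE 0.34) and missed the threshold (adjusted p = 0.0601 in edgeR's quasi-likelihood test with Benjamini-Hochberg adjustment). Its position overlaps the identifier ENSG00000231683, which shares 529 exon bases on the same strand and had 0 to 26 counts.

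GCLM, the modifier subunit (chromosome 1, 93885199 to 93909456, minus strand), was the only 1 of the 10 genes whose counting intervals lay on opposite sides of 0. It moved from 7322 to 5699 counts in MIA PaCa-2 and from 2227 to 4453 in PANC-1. MIA PaCa-2 were the higher line in either condition, by 329 against 97.9 CPM in the controls and 230 against 163 CPM with CBC. The log2 fold change was -0.51 (-0.57 to -0.46) in MIA PaCa-2 and 0.73 (0.66 to 0.81) in PANC-1, and the mean over the lines was 0.11 (SE 0.29, adjusted p = 0.866 in edgeR's quasi-likelihood test with Benjamini-Hochberg adjustment).

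GSS, the last enzyme of glutathione synthesis (chromosome 20, 34928432 to 34956027, minus strand), had 2052 and 2374 counts in MIA PaCa-2 without and with CBC, and 1532 and 2182 in PANC-1. Relative to depth the values lay close together, at 92.3 and 96.0 CPM and at 67.4 and 79.8 CPM. Its log2 fold change was 0.06 (-0.03 to 0.14) in MIA PaCa-2 and 0.24 (0.15 to 0.34) in PANC-1. GSS shares 138 exon bases with MYH7B on the opposite strand, which had 9 to 50 counts, and whether the counting used strand is not stated.

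GSR, which keeps glutathione reduced (chromosome 8, 30678066 to 30727846, minus strand), had 108 and 104 CPM in MIA PaCa-2 and 38.1 and 53.5 CPM in PANC-1. The log2 fold change was -0.05 (-0.14 to 0.03) in MIA PaCa-2, where it turns to 0.01 when counts are scaled to library totals alone, and 0.49 (0.37 to 0.61) in PANC-1. Neither GSS nor GSR passed the test across the lines, with log2 fold changes of 0.16 (SE 0.21) and 0.22 (SE 0.23) and adjusted p of 0.723 and 0.631 in edgeR's quasi-likelihood test with Benjamini-Hochberg adjustment.

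CTH, the enzyme that releases cysteine from cystathionine (chromosome 1, 70411218 to 70439851, plus strand), moved from 606 to 2788 counts in MIA PaCa-2 and from 77 to 443 in PANC-1. Both PANC-1 libraries lay below both MIA PaCa-2 libraries, while the fold changes did not differ beyond counting error. They were 2.04 (1.92 to 2.18) and 2.23 (1.91 to 2.63) on the log2 scale, with a difference of 0.19 (-0.18 to 0.56). CTH rose across the lines by 2.15 (SE 0.25, adjusted p = 0.00714 in edgeR's quasi-likelihood test with Benjamini-Hochberg adjustment).

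CBS, which makes cystathionine (chromosome 21, 43053191 to 43076943, minus strand), had 185 and 466 counts in MIA PaCa-2 and 228 and 538 in PANC-1. Each CBC library was above both controls. The log2 fold changes of 1.17 (0.93 to 1.43) and 0.97 (0.75 to 1.20) both have intervals that hold the threshold of 1. Across the lines CBS was higher by 1.08 (SE 0.30) and missed the threshold (adjusted p = 0.0887 in edgeR's quasi-likelihood test with Benjamini-Hochberg adjustment). CBS has a near-identical copy, CBSL, so its counts are uncertain where reads match both.

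CHAC1, a glutathione-cleaving enzyme of the stress response (chromosome 15, 40952962 to 40956512, plus strand), had the highest fold change of the 10 genes in each line. It moved from 135 to 1556 counts in MIA PaCa-2 and from 262 to 1977 in PANC-1, so the treated libraries came out close together at 62.9 and 72.3 CPM. The log2 fold change was 3.36 (3.12 to 3.64) in MIA PaCa-2 and 2.64 (2.46 to 2.84) in PANC-1, where that of SLC7A11 was 2.62. Among all tested genes CHAC1 ranked 141 from the top of 14001 in MIA PaCa-2 and 95 of 14091 in PANC-1. It rose across the lines by 3.01 (SE 0.29, adjusted p = 0.00464 in edgeR's quasi-likelihood test with Benjamini-Hochberg adjustment).

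CHAC2, its paralog and a slower glutathione-cleaving enzyme (chromosome 2, 53767804 to 53775196, plus strand), went the other way. It had 472 and 292 counts in MIA PaCa-2 and 307 and 157 in PANC-1, and both CBC libraries were below both controls in CPM. The log2 fold change was -0.84 (-1.06 to -0.63) in MIA PaCa-2 and -1.22 (-1.52 to -0.95) in PANC-1. The value across the lines was -1.03 (SE 0.32, adjusted p = 0.113 in edgeR's quasi-likelihood test with Benjamini-Hochberg adjustment).

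Levels of different genes were compared per kilobase of exon, as TPM, the length-corrected counterpart of CPM. The length was that of all annotated exons of a gene together, not of the transcript expressed, so the order of genes is approximate. In the MIA PaCa-2 control GCLM was the highest of the 10 genes at 229 TPM, followed by GSR at 113 TPM and SLC3A2 at 85.3 TPM, and CBS was the lowest at 4.62 TPM. In the PANC-1 control SLC3A2 at 86.3 TPM and GCLC at 77.1 TPM were highest, and CTH at 5.30 TPM and CBS at 5.58 TPM were lowest. With CBC, SLC3A2 was the highest in each line, at 579.5 TPM in MIA PaCa-2 and 271 TPM in PANC-1. The second place went to CTH at 193 TPM in MIA PaCa-2 and to SLC7A11 at 189 TPM in PANC-1. All 10 genes together took 0.0804% of counts in control MIA PaCa-2 and 0.184% with CBC, and 0.0591% and 0.149% in PANC-1.

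**Figure D2:**
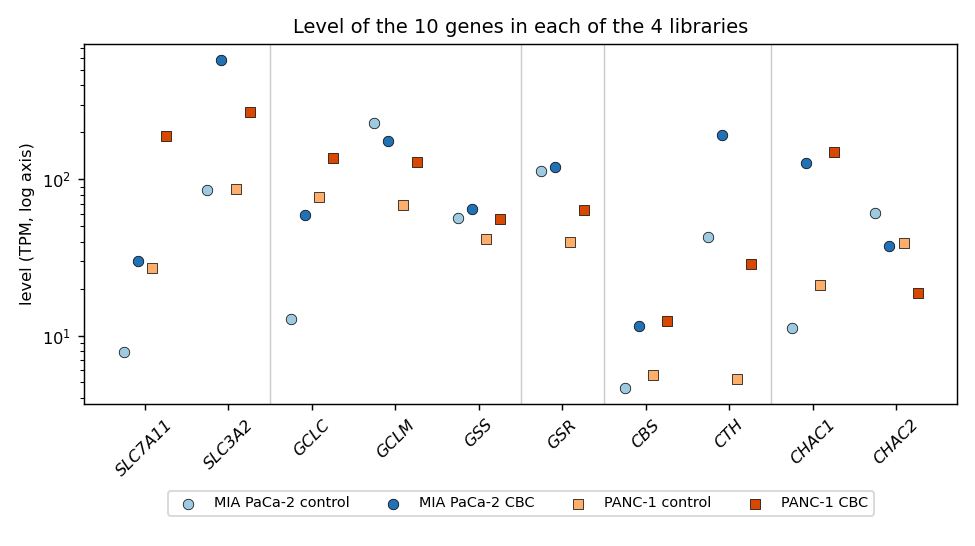
Level of each of the 10 genes in TPM on a log axis, 1 point per library, with circles for MIA PaCa-2 and squares for PANC-1 and the darker shade for CBC. SLC3A2 is the highest point of each CBC library, and CTH separates the lines more than CBC separates treated from control cells.

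Ratios of partner genes within a library do not depend on scaling. Their size, and whether they lie above 1, depends on the exon lengths used. Their change with CBC does not. The ratio of GCLC to GCLM, the subunits of the ligase, was 0.0554 in control MIA PaCa-2 and 0.338 with CBC, 6.10 times as high. In PANC-1 it was 1.13 and 1.08, a log2 change of -0.07 (-0.16 to 0.02). The ratio of SLC7A11 to SLC3A2 went from 0.0921 to 0.0514 in MIA PaCa-2 and from 0.314 to 0.696 in PANC-1, a log2 change of -0.84 (-1.0 to -0.68) against 1.15 (1.06 to 1.25). Transcripts of the light and heavy chain thus moved apart in one line and closer in the other. That of the heavy chain was above that of the light chain in every library. SLC3A2 also pairs with other light chains.

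The ratio of CHAC1 to CHAC2 moved the same way in both lines, from 0.183 to 3.40 in MIA PaCa-2 and from 0.545 to 8.04 in PANC-1. CHAC2 was the higher transcript in both controls and CHAC1 in both CBC libraries. The ratio of CTH to CBS went from 9.21 to 16.8 in MIA PaCa-2 and from 0.949 to 2.31 in PANC-1. The log2 changes were 0.87 (0.59 to 1.15) and 1.29 (0.87 to 1.70).

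**Figure D3:**
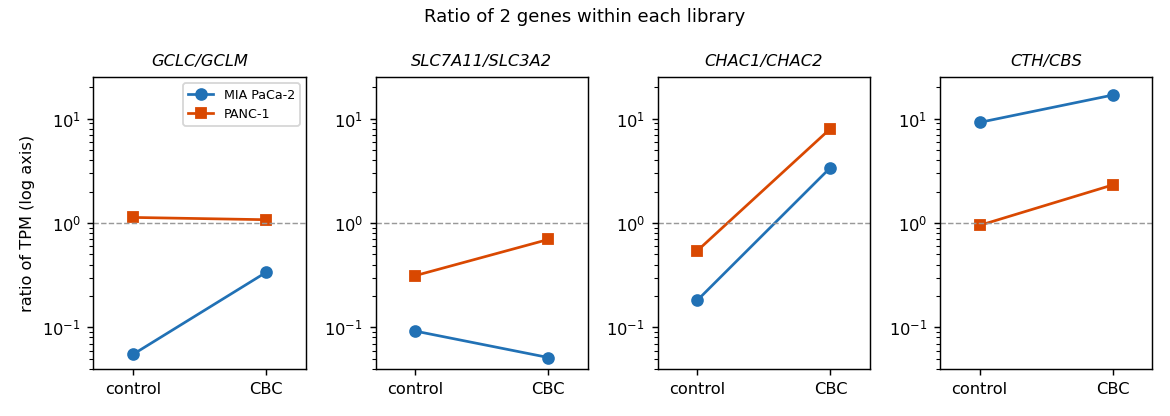
Ratio of the TPM values of 4 gene pairs within each library on a log axis, with lines joining control and CBC of MIA PaCa-2 (circles) and PANC-1 cells (squares). GCLC/GCLM went up in MIA PaCa-2 and stayed near 1 in PANC-1, SLC7A11/SLC3A2 moved in opposite directions, and CHAC1/CHAC2 crossed 1 in both lines.

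The lines were also compared before any CBC, where the share of the 10 genes past the fold was near that of all genes. In the controls SLC7A11 and GCLC were above a log2 difference of 1 in PANC-1 over MIA PaCa-2, 2 of 10 genes against 24.0% of 14805 tested genes, and GCLM, GSR and CTH were below -1, 3 of 10 against 18.0%. SLC7A11 differed by 1.78 (1.63 to 1.94) and GCLC by 2.60 (2.48 to 2.73). CTH differed by -2.98 (-3.37 to -2.66), GCLM by -1.75 (-1.82 to -1.68) and GSR by -1.51 (-1.62 to -1.40). SLC3A2 was level at 0.01 (-0.06 to 0.08), which turns to -0.12 under library totals. The counting interval of CBS, with a difference of 0.27 (-0.02 to 0.56), also held 0. This comparison uses the same control libraries as the fold changes with CBC.

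With CBC the lines stood closer in GCLC, at 1.17 (1.11 to 1.23), in GCLM, at -0.50 (-0.56 to -0.44), and in CHAC1, at 0.20 (0.11 to 0.30). They stood further apart in SLC7A11, at 2.61 (2.54 to 2.69), and in SLC3A2, at -1.14 (-1.18 to -1.11). Over both treatments, edgeR's quasi-likelihood test called 2 of 10 genes higher in PANC-1, against 25.2% of 16380 genes, and 4 lower, against 21.8%. SLC7A11 was higher by 2.14 (SE 0.25, adjusted p = 0.000362) and GCLC by 1.82 (SE 0.34, adjusted p = 0.00346) in this edgeR test with Benjamini-Hochberg adjustment. CTH was lower, at -2.96 (SE 0.25), as were GSR at -1.30 (SE 0.23), GCLM at -1.19 (SE 0.29) and CHAC2 at -0.91 (SE 0.32). Their adjusted p were 6.56e-05, 0.00268, 0.0115 and 0.0455 in the same edgeR test, and CHAC2 is lost when DESeq2 is used (adjusted p = 0.0848, with 0.0348 to 0.0848 over the alternatives that keep the block). Without the block for treatment GSR alone was called.

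**Figure D4:**
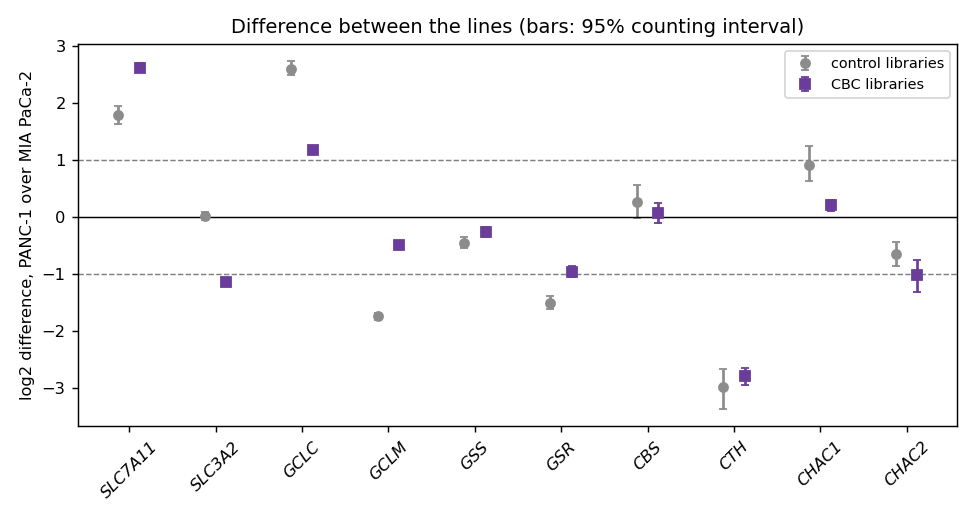
Log2 difference of PANC-1 over MIA PaCa-2 for the 10 genes in the control libraries (circles) and the CBC libraries (squares), with 95% counting intervals as bars and dashed lines at 1 and -1. SLC3A2 goes from 0.01 to -1.14, GCLM from -1.75 to -0.50, and CTH lies near -3 in both.

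The wider pathway was read from 9 lists of 96 genes, 95 of them in the count table. Across the lines 10 of the 73 genes tested were called higher by edgeR's quasi-likelihood test, beside 2.37% of all genes, and 0 lower, beside 2.6% (8 lower at an unadjusted p under 0.05 and 1 by DESeq2). Of these 10, 5 came from the list of 9 regulators and not from enzymes or carriers. The lists were chosen with earlier results of these data known, so these shares are descriptions only. In MIA PaCa-2 9 of 65 genes were above a log2 fold change of 1 and 5 below -1, shares near the 11.5% and 8.97% of all genes. In PANC-1 10 of 70 were above 1 and 3 below -1, beside 7.71% and 7.03% of all genes.

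Of 6 cystine and cysteine carriers tested 2 were called higher. SLC1A4, a carrier of neutral amino acids including cysteine, moved from 233 to 1638 counts in MIA PaCa-2 and from 342 to 1459 in PANC-1, and rose by 2.25 (SE 0.30, adjusted p = 0.0105 in edgeR's quasi-likelihood test). CTNS, the lysosomal cystine exporter, rose by 1.27 (SE 0.26, adjusted p = 0.0326 in the same edgeR test) and is named here after its value was seen. Among 3 light chains that pair with SLC3A2, SLC7A5, which carries large neutral amino acids, was the 1 called. It went from 10700 to 29298 and from 6719 to 16973 counts and rose by 1.19 (SE 0.18, adjusted p = 0.0143 in the same edgeR test), while SLC7A6 was at -0.54 (SE 0.24).

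Of 8 genes of the gamma-glutamyl cycle 2 were called. GGT1, which cleaves glutathione outside the cell, rose by 1.92 (SE 0.26, adjusted p = 0.0121 in edgeR's quasi-likelihood test), from 892 to 3331 counts in MIA PaCa-2 and from 21 to 114 in PANC-1. GGT1 belongs to a family of near-identical copies, so its counts are uncertain. OPLAH, which returns glutamate from oxoproline, rose by 1.10 (SE 0.23, adjusted p = 0.0344 in the same edgeR test), and is named after its value was seen. GGCT, the cyclotransferase that forms oxoproline, was at -0.65 (SE 0.26).

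No gene was called by edgeR in the other enzyme and transporter lists, namely 13 of the methionine cycle and sulfur metabolism, 5 glutathione peroxidases, 15 glutathione transferases, 7 glutaredoxins and glyoxalases and 7 transporters. At an unadjusted p under 0.05 edgeR gave 1, 1, 2, 1 and 2 of them lower and 0, 0, 0, 0 and 1 higher, and DESeq2 called 1 peroxidase, GPX8, lower and no other. Among genes that averaged 10 CPM or more, the extremes of each list by mean change stayed under 1 on the log2 scale in size. They were AHCYL2 at 0.16 and AHCYL1 at -0.54, GPX1 at 0.22 and GPX8 at -0.72, MGST1 at 0.40 and GSTM4 at -0.66, GLRX2 at 0.38 and GLRX5 at -0.47, and ABCC5 at 0.60 and SLC25A40, a paralog of the mitochondrial glutathione carrier, at -0.83. Below that level, and named after their values were seen, GLRX had 24 and 2 counts in MIA PaCa-2 and 481 and 264 in PANC-1, GSTA4 had 359 and 147 against 104 and 70, and GNMT had 16 and 15 against 20 and 3. Their values across the lines were -1.75 (SE 0.55), -1.14 (SE 0.38) and -1.35 (SE 0.83), with adjusted p of 0.118, 0.137 and 0.393 in edgeR's quasi-likelihood test with Benjamini-Hochberg adjustment.

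Of 9 regulators known to act on these genes 5 were called. ATF3, a stress-induced factor of the ATF family, moved from 86 to 3738 counts in MIA PaCa-2 and from 89 to 1598 in PANC-1, and rose by 4.60 (SE 0.39, adjusted p = 0.00319 in edgeR's quasi-likelihood test). ATF4 itself rose by 1.27 (SE 0.22) and DDIT3 (CHOP), its partner in endoplasmic reticulum stress, by 3.74 (SE 0.36), with adjusted p of 0.0202 and 0.00464 in the same edgeR test. The small MAF proteins MAFF and MAFG, dimer partners of NRF2, rose by 2.03 (SE 0.35, adjusted p = 0.0202) and 1.27 (SE 0.25, adjusted p = 0.0304) in the same edgeR test. NFE2L2 was at 0.47 (adjusted p = 0.234) and KEAP1, the inhibitor of NRF2, at -0.02 (adjusted p = 0.977), and neither was called. ATF4, DDIT3, MAFF, MAFG and NFE2L2 are named here after their values were seen.

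Among 10068 genes that averaged 10 CPM or more, those whose log2 CPM, centred over the 4 libraries, lay nearest to SLC7A11 were CD22, ENSG00000217801, PTK6, HSD17B14 and SYNGR3, at Euclidean distances of 0.39, 0.45, 0.53, 0.75 and 0.86. CD22 had 36 and 182 counts in MIA PaCa-2 and 182 and 1017 in PANC-1. The nearest of the other 9 genes was GCLC, at place 66 and a distance of 1.44. Nearest to CHAC1 were DDIT4, TRIB3, SQSTM1, CREBRF and ULBP1, at 0.42, 0.63, 0.65, 0.81 and 0.81. TRIB3, a pseudokinase of the stress response, had 582 and 7775 counts in MIA PaCa-2 and 733 and 8594 in PANC-1. The nearest of the 10 genes to CHAC1 was SLC3A2, at place 52 and a distance of 1.49. With 4 libraries these are descriptions of likeness only.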

How the data were processed

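Reads were trimmed by the authors (cutadapt 2.7), mapped to GRCh38 by STAR and assigned to Ensembl genes by HTSeq, and the authors deposited raw counts for 58233 genes in 4 libraries, together with a normalized signal per library, which is the CPM on TMM-scaled library sizes. Whether HTSeq used strand is not given in the sources used here. Symbols and exon lengths came from GENCODE release 44 for 57392 identifiers. Log2 fold changes used the deposited counts, TMM over the 4 libraries and a prior count of 2 in edgeR 4.0.16 (R 4.3.3), for genes that reached 1 CPM in either library of a comparison. Intervals within a line were computed from the count ratio by the exact Clopper-Pearson method in scipy 1.17.1, and those of differences and of ratios are normal approximations on the log scale, all at 95%. They and the limit of 3 counts cover counting error only.

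CBC against PBS, and line against line, were tested with edgeR's quasi-likelihood test on the 16380 genes kept by its filter, the other factor as a block. Libraries were paired by cell line, and paired libraries deviated together from their treatment means (correlation 0.922). The common coefficient of variation was 23.0%. Each SE given with an edgeR value is that value's size over the square root of the test's F statistic. It is not a separate estimate of spread between the lines. The code was also run on simulated data, with the same fold change in both lines and less spread than here. That run checks the code and not these calls. The 10 genes, the pathway lists and the rule for named genes were chosen with earlier results of these data known. The rule takes all 10 genes, the largest mean rise and fall of each list among genes of at least 10 CPM, and the 5 genes nearest to SLC7A11 and to CHAC1. Alternatives changed the filter, prior count, scaling (DESeq2 1.42.0 size factors, library totals), values (deposited CPM plus 0.1), the block and the tool.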

Additional observations from a re-analysis of the deposited data

Results flagged for a closer look

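In 8 genes, GCLM and 7 of the pathway lists, the fold change with CBC lay above 0 in one line and below 0 in the other, with both counting intervals off 0. The difference between the lines, given here on the log2 scale as PANC-1 minus MIA PaCa-2, was not tested, since each condition had 1 library. For GCLM it was 1.25. In ETHE1, CSAD and GSTZ1, of sulfur metabolism and the transferases, it was 1.29, 1.08 and 0.77, with fold changes below 0 in MIA PaCa-2 and above 0 in PANC-1. MGST1, a microsomal glutathione transferase, had 1785 and 1708 counts in MIA PaCa-2 and 238 and 588 in PANC-1, log2 fold changes of -0.22 and 1.03, and a difference of 1.25. In the exporter ABCC1 and the sulfurtransferase MPST it was -1.04 and -0.52, with fold changes above 0 in MIA PaCa-2 and below 0 in PANC-1. KEAP1 had 1530 and 1825 counts in MIA PaCa-2 and 2322 and 2525 in PANC-1, log2 fold changes of 0.10 and -0.14, and a difference of -0.24.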

How the results depend on the processing

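For CBC over both lines, 4 of the 10 genes were called. Without the filter on low counts 7 were called, 6 higher and 1 lower, and without the replicate block for the cell line 0 were, with 2, CHAC1 and SLC3A2, at an unadjusted p under 0.05. For the lines, 6 were called, and without the replicate block for the treatment 1 was, GSR. Of the other 34 counts under alternatives each was within 1.5 times its main count. CBS passed the fold threshold in PANC-1 under library totals, at 1.04. GCLC was called by DESeq2 (adjusted p = 0.0450, with 5.31e-07 to 0.0845 over the alternatives with the block). No result reversed among those with a call. Over all genes, edgeR called 389 higher and 426 lower with CBC, 1056 and 1007 without the filter, and 0 and 0 without the block. Between the lines it called 4130 higher and 3565 lower, and 2520 and 1766 without the block. Without the filter, 3249 genes were above and 2567 below the fold threshold in MIA PaCa-2, 2537 and 2310 in PANC-1 and 5714 and 5164 between the controls. Library totals shifted the median of all genes between the controls by -0.13. Leaving out a library was not run for the tests, since none has a replicate in its condition and no residual degree of freedom would remain. Counts of CBS and CBSL summed were not run, since no identifier in the tables used here pairs with CBSL.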

Other observations

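Several genes of the glutathione lists were nearly confined to one line, with or without CBC, and were picked out after their values were seen. ANPEP, an aminopeptidase that acts on the product of GGT1, had 1 and 2 counts in MIA PaCa-2 and 5989 and 6002 in PANC-1. ABCC3, an exporter of conjugates, had 108 and 183 counts in MIA PaCa-2 and 3998 and 5779 in PANC-1, and ABCC2, a related exporter, had 2935 and 2576 against 24 and 38. GPX3, the secreted glutathione peroxidase, had 0 counts in either MIA PaCa-2 library and 476 and 512 in PANC-1. GSTM1, a glutathione transferase with close paralogs, had 609 and 382 counts in MIA PaCa-2 and 0 and 1 in PANC-1. Each value comes from 1 library.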
